A study of Oryza sativa with 35 samples.

Results

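Superoxide dismutases and glutathione reductases were followed in rice seedlings that were chilled and then returned to normal growth. The 10 loci were taken by locus identifier because each is annotated as one of these enzymes, and they are 10 of the 57778 loci in the expression table. Superoxide dismutases (SODs) convert superoxide, a by-product of photosynthetic and respiratory electron transport, into hydrogen peroxide and oxygen, and they are classed by the metal they carry. In plants the Cu/Zn enzymes occur in the cytosol and the chloroplast, the Mn enzyme in mitochondria and the Fe enzymes in chloroplasts. Glutathione reductase (GR) uses NADPH to turn oxidised glutathione back into its reduced form, which in turn regenerates ascorbate, the electron donor with which ascorbate peroxidases remove hydrogen peroxide. The group held 4 Cu/Zn SODs, 1 Mn SOD, 2 Fe SODs and 3 GRs.

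RNA was sequenced from whole plants of DC90 and 9311. DC90 is a chilling-tolerant line that carries CTS-12, a chilling-tolerance locus from wild rice (Oryza rufipogon), in the background of 9311, the chilling-sensitive indica cultivar against which it is compared. The libraries titled W9 were taken as DC90, because they are labelled as the chilling-tolerant genotype and only these 2 materials are named. DC90 is 1 line, so CTS-12 cannot be told apart from any other wild rice segment or line-specific change that DC90 carries. Seedlings of both genotypes were 30 days old at the start, were kept at 10/8 °C (day/night) for 3 days and then recovered under normal conditions for 24 h. Plants were sampled before treatment (0 h), during chilling (12, 24 and 72 h) and during recovery (84 and 96 h), with 3 libraries in every group except 9311 at 84 h, which had 2 (replicates 1 and 3). The 12 and 84 h samples were taken 12 h out of phase with the 0 h sample, so time of day and treatment cannot be told apart in their comparison with 0 h.

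The 35 libraries held 28004101 to 68927044 counted reads each. The 5 leaf marker genes were detected in all 35 libraries, whereas among the 5 root markers LOC_Os02g02170 was at 0 in 3 libraries and LOC_Os02g02190 in 7. Replicate 2 of 9311 at 12 h and replicate 2 of 9311 at 72 h stood apart from their group mates, with correlations of log expression of 0.885 to 0.896 and of 0.874 to 0.900, and replicates 2 and 3 of DC90 at 0 h correlated by 0.897. Results that depended on 1 of these libraries are given with and without it. The study's methods call the libraries of a group biological replicates of whole plants, the sample labels do not say how they were drawn, and p-values measure the spread between them. In whole-plant RNA a smaller proportion of a cell type and less RNA per cell cannot be told apart.

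All 10 loci passed the filter on low expression (a mean of at least 0.5 FPKM, fragments scaled to transcript length and library size). On this per-length scale, Cu/Zn SOD 1 (SODCC1, LOC_Os03g22810) and the chloroplastic Cu/Zn SOD (SODCP, LOC_Os08g44770) had the highest levels before chilling. Cu/Zn SOD 1 averaged 186 ± 69.1 FPKM in DC90 and 180.0 ± 22.6 FPKM in 9311 at 0 h (SD, n = 3 each), and chloroplastic Cu/Zn SOD averaged 140.1 ± 47.2 FPKM in DC90 and 139 ± 11.6 FPKM in 9311 (SD, n = 3 each). The ranges of these 2 overlapped in DC90 and not in 9311. Cu/Zn SOD 2 (SODCC2, LOC_Os07g46990) followed with 65.4 ± 1.99 FPKM in DC90 and 84.4 ± 8.84 FPKM in 9311 (SD, n = 3 each). The fourth Cu/Zn SOD (LOC_Os03g11960), the mitochondrial Mn SOD (SODA, LOC_Os05g25850) and the Fe SODs 1 and 2 (LOC_Os06g02500 and LOC_Os06g05110) had group means between 28.1 and 69.1 FPKM, and neighbours in this order overlapped in their replicate ranges, except that in 9311 Mn SOD lay above both Fe SODs. Among the reductases, the cytosolic GR (GRC2, LOC_Os02g56850) was the most abundant, with 23.6 ± 0.392 FPKM in DC90 and 33.1 ± 6.28 FPKM in 9311 (SD, n = 3 each). The GR of LOC_Os03g06740, which the deposited annotation names as chloroplastic, averaged 14.9 ± 2.44 FPKM in DC90 and 13.6 ± 3.96 FPKM in 9311 (SD, n = 3 each). The GR of LOC_Os10g28000, whose closest annotated protein is a chloroplastic GR of tobacco, was the rarest transcript of the group, at 1.08 ± 0.411 FPKM in DC90 and 1.57 ± 0.430 FPKM in 9311 (SD, n = 3 each).

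**Figure D1:**
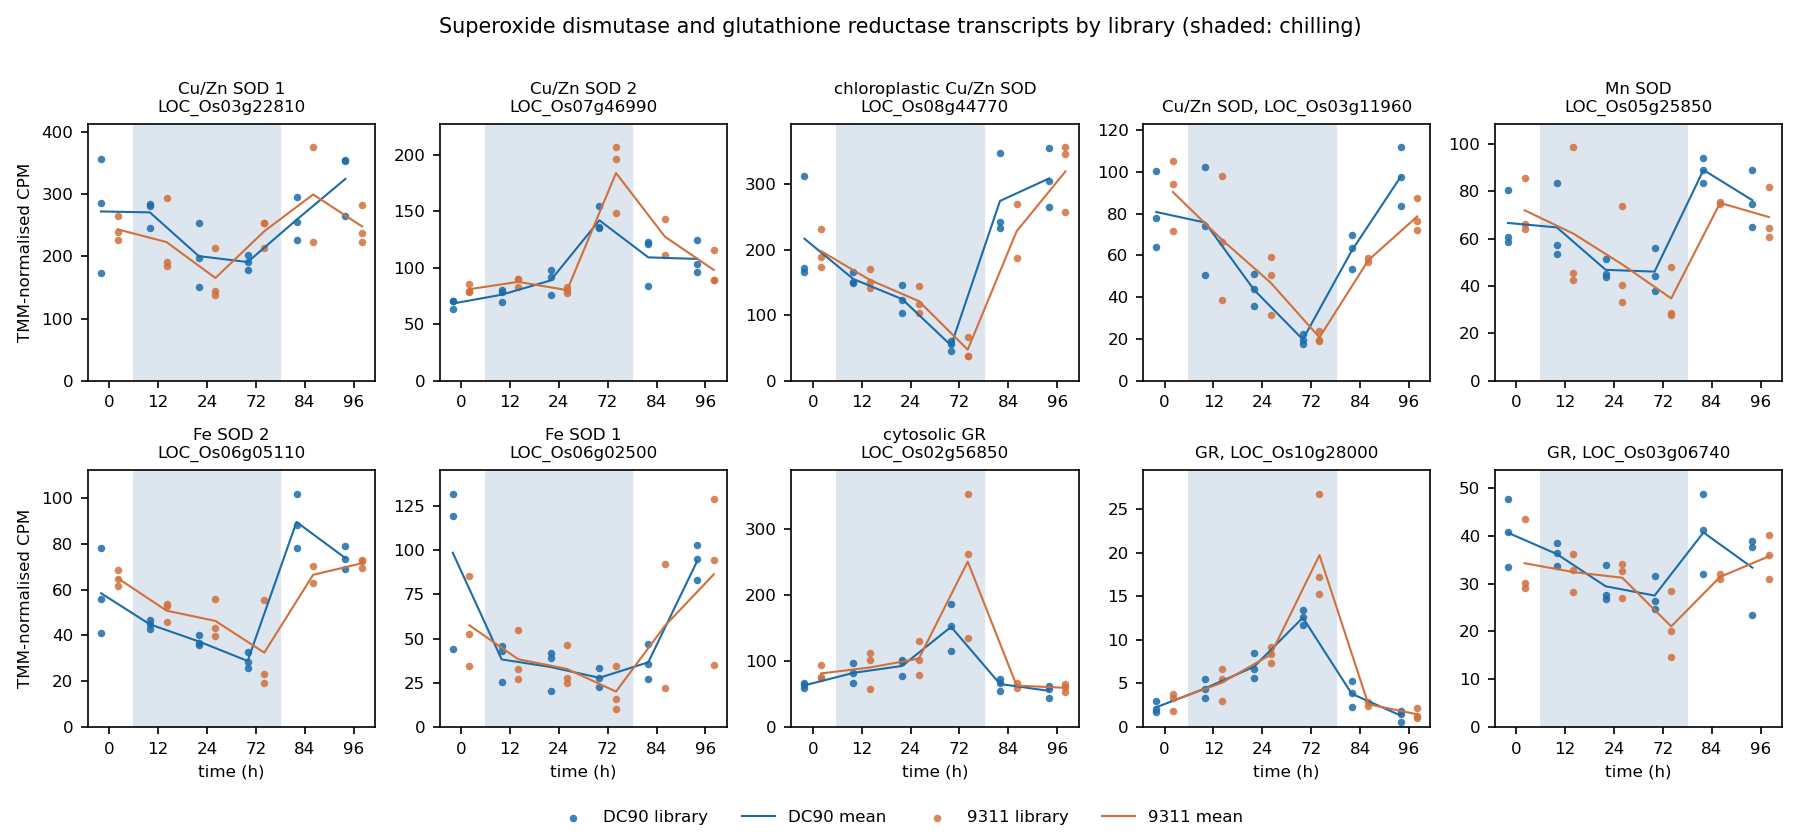
Normalised expression (CPM, counts scaled to library size with TMM factors, linear axis from 0) of the 10 loci in each of the 35 libraries against time (timepoints evenly spaced, not to scale), with 1 point a library and lines through the group means, DC90 in blue to the left of 9311 in orange. The chilling samples are shaded. Chloroplastic Cu/Zn SOD is lowest at 72 h (44.8 to 60.6 in DC90, 37.8 to 66.9 in 9311), where cytosolic GR is highest (115 to 187 in DC90, 135 to 353 in 9311).

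After chilling, the members had moved in opposite directions by enzyme and by form. At 72 h the chloroplastic Cu/Zn SOD, the Cu/Zn SOD of LOC_Os03g11960, both Fe SODs and the GR of LOC_Os03g06740 were lower than at 0 h in both genotypes, whereas Cu/Zn SOD 2, the cytosolic GR and the GR of LOC_Os10g28000 were higher. In DC90, 8 of the 10 members passed an adjusted p of 0.05 at 72 h (3 higher and 5 lower, quasi-likelihood F test of edgeR, Benjamini-Hochberg), against 40.2% of all 22961 loci tested, of which 18.6% were higher and 21.6% lower. In 9311, 9 of 10 passed (3 higher and 6 lower), against 48.8% of all loci (23.9% higher and 24.9% lower). When only the groups compared entered the fit, 5 of 10 passed in 9311, against 8576 of the 22961 loci. The median log2 fold change of the members at 72 h was -0.55 in DC90 and -0.85 in 9311, where that of all loci was -0.07 and -0.05. With the stricter thresholds of the study (at least a log2 change of 2 in either direction, with adjusted p no higher than 0.001), 3 members passed in DC90 (7.73% of all loci) and 3 in 9311 (11.5% of all loci), and in both genotypes these were the chloroplastic Cu/Zn SOD, LOC_Os03g11960 and LOC_Os10g28000.

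The leaf markers (Rubisco small subunits, Rubisco activase, plastocyanin and a light-harvesting protein) fell in the same samples. Their summed level was 537 to 1256 FPKM at 72 h against 14032 to 18702 FPKM at 0 h in DC90, and 174 to 1082 FPKM at 72 h against 15622 to 19408 FPKM at 0 h in 9311. In each genotype 5 of 5 leaf markers were lower at the adjusted p of 0.05, where 21.6% of all loci were lower in DC90 and 24.9% in 9311. The summed level of the 5 root markers was 19.5 to 29.0 FPKM at 72 h against 34.2 to 447 FPKM at 0 h in DC90, and 2.41 to 9.72 FPKM at 72 h against 104 to 155 FPKM at 0 h in 9311. The root markers also passed as lower in edgeR's quasi-likelihood test, except LOC_Os03g01700 in DC90 (adjusted p = 0.1) and LOC_Os02g02190 in 9311 (adjusted p = 0.058). The part that these shifts have in the changes of the SODs and GRs was not tested.

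The chloroplastic Cu/Zn SOD, which acts on superoxide formed at the photosynthetic membranes, fell by the widest margin among the SODs together with LOC_Os03g11960. It stood at 56.6, 44.8 and 60.6 normalised CPM (counts scaled to library size) in DC90 at 72 h, against 313, 172 and 166 CPM in DC90 at 0 h. In 9311 it stood at 37.9, 66.9 and 37.8 CPM at 72 h, against 173, 189 and 231 CPM at 0 h. Every chilled library was below every 0 h library of its genotype, and 9311 replicate 2 was the highest of the chilled 9311 libraries. The log2 fold change was -2.0 (SE 0.26, adjusted p = 1.3e-06) in DC90 and -2.06 (SE 0.26, adjusted p = 5.9e-07) in 9311. The Cu/Zn SOD of LOC_Os03g11960, for which the annotation gives no compartment, had 19.4, 22.5 and 17.5 CPM in DC90 at 72 h, against 100.2, 64.1 and 78.0 CPM at 0 h. In 9311 it had 19.3, 19.2 and 23.8 CPM at 72 h, against 105, 71.7 and 94.4 CPM at 0 h. The 6 chilled libraries thus lay within a narrow band below all 0 h libraries, and the log2 fold change was -2.03 (SE 0.28, adjusted p = 4.2e-06) in DC90 and -2.12 (SE 0.29, adjusted p = 1.6e-06) in 9311.

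For the remaining Cu/Zn SODs the annotation gives no compartment either, and one of them, Cu/Zn SOD 2, rose in both genotypes. It had 155, 136 and 135 CPM in DC90 at 72 h, against 70.8, 63.6 and 70.8 CPM at 0 h. In 9311 it had 149, 197 and 206 CPM at 72 h, against 78.6, 85.4 and 79.2 CPM at 0 h. No 72 h library overlapped a 0 h library, and the log2 fold change was 1.05 (SE 0.16, adjusted p = 1.5e-05) in DC90 and 1.18 (SE 0.16, adjusted p = 2.2e-06) in 9311. Cu/Zn SOD 1 had 179, 202 and 191 CPM in DC90 at 72 h, against 286, 356 and 173 CPM at 0 h, and 254, 213 and 254 CPM in 9311 at 72 h, against 226, 265 and 239 CPM at 0 h. These ranges overlapped in both genotypes, and its log2 fold changes of -0.51 (95% interval -1.02 to -0.01, adjusted p = 0.10) in DC90 and -0.02 (95% interval -0.52 to 0.49, adjusted p = 0.96) in 9311 did not pass. Without replicate 3 of DC90 at 0 h, its lowest 0 h library, the DC90 value was -0.75 with an adjusted p of 0.019.

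Mn SOD, the mitochondrial enzyme, had 56.2, 37.7 and 44.4 CPM in DC90 at 72 h, against 58.5, 80.7 and 60.8 CPM at 0 h, and 27.8, 47.9 and 28.7 CPM in 9311 at 72 h, against 64.3, 85.6 and 66.2 CPM at 0 h. The 72 h libraries were below the 0 h libraries in both genotypes, narrowly so in DC90. The log2 fold change passed in 9311 (-1.05, SE 0.29, adjusted p = 0.0047) and did not in DC90 (-0.53, 95% interval -1.13 to 0.07, adjusted p = 0.15), but the difference between the genotypes over the chilling timepoints did not pass a test of its own (adjusted p = 1.0). The 9311 call was lost when only the 2 groups compared entered the fit (adjusted p = 0.053).

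Fe SOD 2 had 32.7, 28.3 and 25.6 CPM in DC90 at 72 h, against 78.4, 56.0 and 40.9 CPM at 0 h, and 19.2, 55.3 and 23.0 CPM in 9311 at 72 h, against 61.7, 68.7 and 64.8 CPM at 0 h. All chilled libraries were below the 0 h range of their genotype, with 9311 replicate 2 close beneath it. The log2 fold change was -1.02 (SE 0.26, adjusted p = 0.0025) in DC90 and -1.0 (SE 0.26, adjusted p = 0.0023) in 9311, and the 9311 call was lost when only the groups compared were fitted (adjusted p = 0.17). Fe SOD 1 was the most variable member before chilling, relative to its mean. It had 33.3, 22.6 and 27.8 CPM in DC90 at 72 h, against 132, 119 and 44.3 CPM at 0 h, and 15.7, 34.5 and 10.1 CPM in 9311 at 72 h, against 34.6, 52.5 and 85.5 CPM at 0 h. The ranges did not overlap, but in 9311 the highest chilled library lay just under the lowest 0 h library. The log2 fold change was -1.82 (SE 0.53, adjusted p = 0.0074) in DC90 and -1.52 (SE 0.52, adjusted p = 0.018) in 9311. The 9311 call was lost without replicate 3 at 0 h (-1.12, adjusted p = 0.11), without replicate 1 at 72 h (-1.37, adjusted p = 0.073), without replicate 3 at 72 h (-1.20, adjusted p = 0.097) and when only the groups compared were fitted (adjusted p = 0.095).

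Of the glutathione reductases, the cytosolic GR had 115, 154 and 187 CPM in DC90 at 72 h, against 66.7, 59.9 and 63.0 CPM at 0 h. In 9311 it had 263, 135 and 353 CPM at 72 h, against 74.1, 94.1 and 75.3 CPM at 0 h. All chilled libraries were above all 0 h libraries, and replicate 2 of 9311 was the lowest of the chilled 9311 libraries. The log2 fold change was 1.26 (SE 0.27, adjusted p = 0.00063) in DC90 and 1.62 (SE 0.28, adjusted p = 3.2e-05) in 9311. The GR of LOC_Os10g28000 had the largest increase of the 10 members. It had 13.4, 11.7 and 12.6 CPM in DC90 at 72 h, against 2.13, 2.94 and 1.72 CPM at 0 h, and 17.1, 15.2 and 26.7 CPM in 9311 at 72 h, against 1.85, 3.82 and 3.34 CPM at 0 h. The groups were far apart, with log2 fold changes of 2.47 (SE 0.41, adjusted p = 3e-05) in DC90 and 2.71 (SE 0.41, adjusted p = 7e-06) in 9311.

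The GR of LOC_Os03g06740 changed in the opposite direction and by less. It had 31.6, 24.6 and 26.3 CPM in DC90 at 72 h, against 47.7, 40.8 and 33.4 CPM at 0 h, and 14.6, 28.4 and 20.1 CPM in 9311 at 72 h, against 29.1, 43.5 and 30.2 CPM at 0 h. The ranges were separated by a small gap in both genotypes. The log2 fold change was -0.56 (SE 0.23, adjusted p = 0.048) in DC90, a call that was lost in 28 of 43 alternative settings (adjusted p between 0.029 and 0.19), and -0.70 (SE 0.23, adjusted p = 0.012) in 9311. The 9311 call was lost without replicate 2 at 0 h (-0.49, adjusted p = 0.10), without replicate 1 at 72 h (-0.50, adjusted p = 0.095) and when only the groups compared were fitted (adjusted p = 0.21). By contrast, the 72 h calls of the chloroplastic Cu/Zn SOD, LOC_Os03g11960, Cu/Zn SOD 2, the cytosolic GR and LOC_Os10g28000 held in both genotypes at the adjusted p of 0.05 under every alternative fit that gave a value. Of these, LOC_Os10g28000 had no value with a minimum mean of 5 FPKM, which it did not reach.

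**Figure D2:**
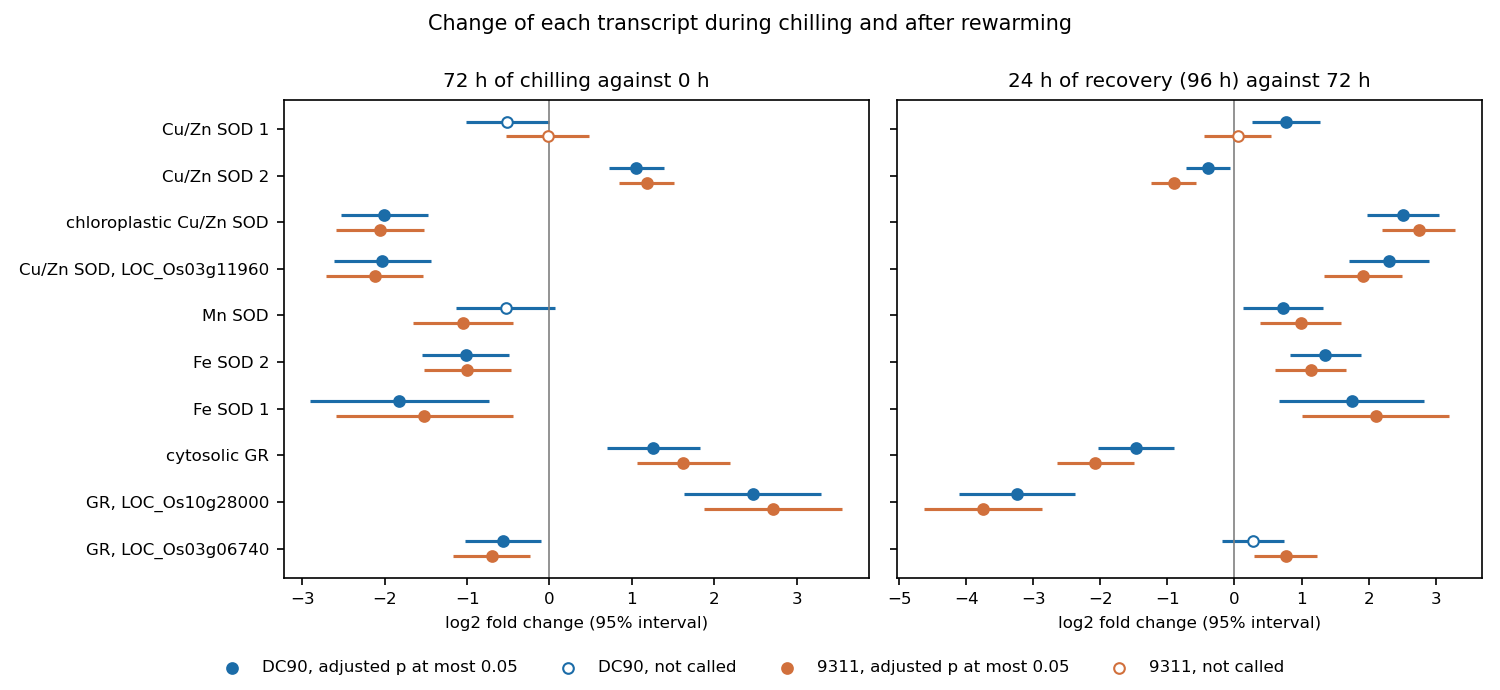
Log2 fold change with its 95% interval for each of the 10 loci (rows), at 72 h of chilling against 0 h (left) and at 96 h against 72 h (right), with DC90 in blue above 9311 in orange and filled points where the adjusted p was at most 0.05. Chloroplastic Cu/Zn SOD lies at -2.0 (DC90) and -2.06 (9311) in the left panel and at 2.51 and 2.75 in the right panel, and the GR of LOC_Os10g28000 at 2.47 and 2.71 and then at -3.24 and -3.75.

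Fewer members passed at the earlier chilling timepoints. At 12 h, 1 member passed in DC90 (28.8% of all loci) and 0 in 9311 (25.2% of all loci). That member was Fe SOD 1, with 25.7, 43.0 and 46.1 CPM at 12 h in DC90, against 132, 119 and 44.3 CPM at 0 h. The groups overlapped, and its log2 fold change of -1.37 (SE 0.52, adjusted p = 0.050) was lost in 27 of 43 alternatives (adjusted p between 0.022 and 0.17). In 9311 at 12 h, edgeR's quasi-likelihood test gave 0 members also at an unadjusted p under 0.05. DESeq2 called 0 (6881 of 22933 loci) and limma on log2(FPKM + 1) called 1 as lower (5954 of 22961 loci).

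At 24 h, 5 members passed in DC90 (1 higher and 4 lower, 40.6% of all loci) and 3 in 9311 (1 higher and 2 lower, 41.1% of all loci). Limma on log2(FPKM + 1) called 6 in 9311 (1 higher and 5 lower, 10091 of 22961 loci). A fit of only the groups compared called 3 in DC90 (1 higher and 2 lower, 6859 of 22961 loci). The GR of LOC_Os10g28000 was already higher, with 5.59, 8.51 and 6.61 CPM in DC90 and 8.35, 9.19 and 7.34 CPM in 9311, all above the 0 h libraries of their genotype. Its log2 fold change against 0 h was 1.61 (SE 0.40, adjusted p = 0.0021) in DC90 and 1.46 (SE 0.39, adjusted p = 0.0041) in 9311. The chloroplastic Cu/Zn SOD was lower, with a log2 fold change of -0.80 (adjusted p = 0.013) in DC90 and -0.70 (adjusted p = 0.026) in 9311. LOC_Os03g11960 was lower as well, at -0.89 (adjusted p = 0.012) in DC90 and -0.94 (adjusted p = 0.0079) in 9311. In DC90 the Fe SODs 1 and 2 also passed, at -1.54 (adjusted p = 0.021) and -0.64 (adjusted p = 0.045). Replicate 1 of DC90 at 0 h decided the 4 lower calls in DC90 at 24 h. Without it the chloroplastic Cu/Zn SOD stood at -0.44 (adjusted p = 0.17), LOC_Os03g11960 at -0.71 (adjusted p = 0.070), Fe SOD 1 at -1.27 (adjusted p = 0.083) and Fe SOD 2 at -0.37 (adjusted p = 0.29), none of which passed. The chloroplastic Cu/Zn SOD was also lost without replicate 2 of DC90 at 24 h (-0.69, adjusted p = 0.063), LOC_Os03g11960 without replicate 1 of DC90 at 24 h (adjusted p = 0.062), and Fe SOD 1 without replicate 2 of DC90 at 0 h (adjusted p = 0.061) or at 24 h (-1.28, adjusted p = 0.095). The call of Fe SOD 2 was lost in 18 of 43 alternatives. In 9311 at 24 h, the chloroplastic Cu/Zn SOD was lost without replicate 3 at 0 h (-0.58, adjusted p = 0.11), without replicate 1 at 24 h (-0.68, adjusted p = 0.071) or without replicate 2 at 24 h (-0.60, adjusted p = 0.11), and LOC_Os03g11960 without replicate 3 at 24 h (-0.72, adjusted p = 0.055). The cytosolic GR, at 101, 99.1 and 77.8 CPM in DC90 and 101, 131 and 78.9 CPM in 9311 at 24 h, did not pass in either genotype (adjusted p = 0.11 and 0.31). The summed leaf markers stood at 3202 to 5536 FPKM at 24 h in DC90 and 2214 to 5954 FPKM in 9311, below every 0 h library of their genotype. By locus the leaf markers were mixed at 24 h in edgeR's quasi-likelihood test. Rubisco activase (LOC_Os11g47970) passed as lower in DC90 (adjusted p = 0.015) and 9311 (adjusted p = 0.014), and the light-harvesting protein (LOC_Os01g41710) in 9311 (adjusted p = 0.042). The Rubisco small subunit of LOC_Os12g19470 was higher in 9311 (1.87, adjusted p = 0.036). The other leaf marker tests at 24 h did not pass. The summed root markers, at 12.7 to 21.9 FPKM in DC90 and 18.0 to 32.5 FPKM in 9311, were also below every 0 h library of their genotype. The part of either marker set in the lower levels of the chloroplastic SODs and LOC_Os03g11960 was not tested.

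On return to normal growth the pattern turned round. At 96 h against 72 h, 9 of 10 members passed in DC90 (6 higher and 3 lower, 43.7% of all loci) and 9 of 10 in 9311 (6 higher and 3 lower, 53.4% of all loci). The chloroplastic Cu/Zn SOD had 355, 265 and 305 CPM in DC90 at 96 h and 257, 345 and 356 CPM in 9311 at 96 h, all above the 72 h libraries, with log2 fold changes of 2.51 (SE 0.26, adjusted p = 6.8e-08) in DC90 and 2.75 (SE 0.27, adjusted p = 8.6e-09) in 9311. The GR of LOC_Os10g28000 had 1.86, 0.587 and 1.54 CPM in DC90 at 96 h and 2.13, 1.03 and 1.22 CPM in 9311 at 96 h, with log2 fold changes of -3.24 (SE 0.42, adjusted p = 1.3e-06) and -3.75 (SE 0.43, adjusted p = 1e-07). The cytosolic GR had 58.0, 44.3 and 62.2 CPM in DC90 and 53.3, 60.5 and 64.5 CPM in 9311 at 96 h, and fell against 72 h by 1.47 on the log2 scale in DC90 (adjusted p = 0.00012) and by 2.08 in 9311 (adjusted p = 1.2e-06).

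Of the other SODs, LOC_Os03g11960, Mn SOD and both Fe SODs rose over this interval in both genotypes. LOC_Os03g11960 was higher at 96 h than at 72 h, with a log2 fold change of 2.30 in DC90 (adjusted p = 8.2e-07) and 1.92 in 9311 (adjusted p = 4.2e-06). Fe SOD 2 stood at 1.35 in DC90 (adjusted p = 0.00015) and 1.14 in 9311 (adjusted p = 0.00061), and Fe SOD 1 at 1.75 (adjusted p = 0.0087) and 2.10 (adjusted p = 0.0017). Mn SOD was higher too, at 0.73 in DC90 (adjusted p = 0.047, lost in 22 of 43 alternatives) and 0.99 in 9311 (adjusted p = 0.0063). Cu/Zn SOD 2 was lower than at 72 h, at -0.40 in DC90 (adjusted p = 0.048, lost in 23 of 43 alternatives) and -0.91 in 9311 (adjusted p = 5e-05). Cu/Zn SOD 1 passed in DC90 (0.77, adjusted p = 0.014, but 0.62 and 0.088 with limma on log2(FPKM + 1)) and not in 9311 (0.05, adjusted p = 0.89), and the GR of LOC_Os03g06740 passed in 9311 (0.76, adjusted p = 0.0062) and not in DC90 (0.28, adjusted p = 0.33). The call of LOC_Os03g06740 was lost without replicate 1 of 9311 at 72 h (0.56, adjusted p = 0.056). When only the groups compared were fitted, 4 members were higher and 3 lower in 9311, where 8629 of 22961 loci passed in either direction. LOC_Os03g06740 (adjusted p = 0.097) and Fe SOD 2 (LOC_Os06g05110, adjusted p = 0.078) then lost their 9311 calls. Whether these 96 h against 72 h changes differed between the genotypes was not tested. The summed leaf markers stood at 5809 to 10729 FPKM at 96 h in DC90 and at 12323 to 21678 FPKM in 9311, in both genotypes above every 72 h library. So did the summed root markers, at 35.2 to 66.1 FPKM in DC90 and 55.9 to 170 FPKM in 9311 at 96 h, lie above every 72 h library. The part of either marker set in these changes was not tested.

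Set against 0 h, 1 member or 0 passed in each recovery comparison, shares near those of all loci. At 84 h, 1 member passed in DC90 (12.3% of all loci) and 1 in 9311 (9.63% of all loci), and at 96 h, 1 in DC90 (6.35% of all loci) and 0 in 9311 (2.63% of all loci). In each case it was Cu/Zn SOD 2, the enzyme that had risen in chilling. It had 121, 84.2 and 122 CPM in DC90 and 112 and 143 CPM in 9311 at 84 h, all above the 0 h libraries, with log2 fold changes of 0.68 (SE 0.16, adjusted p = 0.0053) in DC90 and 0.66 (SE 0.18, adjusted p = 0.019) in 9311. At 96 h it had 124, 96.3 and 103 CPM in DC90, with a log2 fold change of 0.66 against 0 h (SE 0.16, adjusted p = 0.012), and 89.3, 89.0 and 116 CPM in 9311, with a log2 fold change of 0.28 (95% interval -0.06 to 0.61, adjusted p = 0.49). The 84 h call in 9311 was lost without replicate 1 at 0 h (0.63, adjusted p = 0.062), without replicate 3 at 0 h (0.64, adjusted p = 0.064) or without replicate 3 at 84 h (0.46, adjusted p = 0.39), which leaves 1 library at 84 h that is assumed to vary like the other groups. The 96 h call in DC90 was lost without replicate 2 at 0 h (0.61, adjusted p = 0.051) or without replicate 1 at 96 h (0.54, adjusted p = 0.089). When only the groups compared were fitted, none of these 3 calls passed (adjusted p between 0.064 and 0.15), and without a filter the calls of LOC_Os07g46990 in 9311 at 84 h (adjusted p = 0.10) and in DC90 at 96 h (adjusted p = 0.069) were lost. The DC90 count at 84 h was 4 with limma on log2(FPKM + 1) (6812 of 22961 loci), a scale on which the median of all loci moved by 0.368. It was 2 with a minimum of 5 FPKM (both higher, 2563 of 14335 loci) or with DESeq2 (1 higher and 1 lower, 3818 of 22933 loci). At 96 h in 9311, where edgeR's quasi-likelihood test called 0 members, 2 had an unadjusted p under 0.05. DESeq2 called 0 (1214 of 22933 loci) and limma on log2(FPKM + 1) called 0 (919 of 22961 loci).

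The 12 h (chilled) and 84 h (recovering) samples were taken at the same time of day, so their comparison sets chilling against recovery without a difference in time of day. The 84 h plants were also older and had been through the 3 days of chilling. Temperature, age and the length of earlier chilling therefore cannot be told apart in this comparison. At 12 h against 84 h, 3 members passed in DC90 (0 higher and 3 lower, 40.6% of all loci) and 1 in 9311 (lower, 35.7% of all loci). Limma on log2(FPKM + 1) called 5 in DC90 (11850 of 22961 loci) and 4 in 9311 (9827 of 22961 loci), all lower. On that scale the median of all loci moved by -0.466 in DC90 and -0.424 in 9311. In 9311, 0 members passed without a filter (7349 of 42267 loci) or with only the groups compared (2044 of 22961 loci). Fe SOD 2 had 46.8, 44.9 and 42.9 CPM in DC90 at 12 h, against 78.3, 102 and 88.4 CPM at 84 h, without overlap and with a log2 fold change of -1.0 (SE 0.26, adjusted p = 0.0029). In 9311 it had 45.8, 52.8 and 53.9 CPM at 12 h, against 62.8 and 70.2 CPM at 84 h, and a log2 fold change of -0.39 (95% interval -0.97 to 0.19, adjusted p = 0.30). The chloroplastic Cu/Zn SOD passed in DC90 (-0.82, SE 0.25, adjusted p = 0.010), a call lost without replicate 3 of DC90 at 84 h (-0.62, adjusted p = 0.075). At 12 h Cu/Zn SOD 2 was lower than at 84 h in DC90 (-0.52, adjusted p = 0.012) and in 9311 (-0.55, adjusted p = 0.019). The DC90 value lost its call without replicate 3 at 12 h (adjusted p = 0.057), replicate 1 at 84 h (adjusted p = 0.060) or replicate 3 at 84 h (adjusted p = 0.062), and the 9311 value without replicate 3 at 84 h (-0.35, adjusted p = 0.27). Without replicate 2 of 9311 at 12 h, one of the libraries that stood apart, 4 members passed in 9311. The share of all loci in that fit is not given here, so this count is not read as a result about the members. The summed leaf markers differed in the opposite direction, with 7916 to 11682 FPKM at 12 h against 1016 to 3089 FPKM at 84 h in DC90, and 4690.0 to 11310.1 FPKM at 12 h against 616 to 1264 FPKM at 84 h in 9311. The summed root markers were lower at 12 h in DC90, with 20.2 to 24.9 FPKM against 45.0 to 147 FPKM at 84 h. In 9311 they overlapped, with 15.1 to 61.4 FPKM at 12 h and 34.9 to 55.9 FPKM at 84 h. The part of either marker set in these differences was not tested.

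The make-up of the SOD transcript pool shifted during chilling. Its summed level was 429 to 516 FPKM in DC90 at 72 h, against 434 to 647 FPKM at 0 h. In 9311 it was 399 to 540 FPKM at 72 h, against 573 to 638 FPKM at 0 h, so the ranges overlapped in DC90 and not in 9311. The share of Cu/Zn SOD 2 was 34.4 to 37.0% of the summed SOD FPKM in the DC90 libraries at 72 h, against 9.95 to 15.6% at 0 h, and 37.0 to 43.8% in the 9311 libraries at 72 h, against 13.2 to 14.7% at 0 h. The 3 chloroplastic SODs (the chloroplastic Cu/Zn SOD and both Fe SODs) together made up 14.6 to 18.6% at 72 h in DC90, against 32.1 to 44.6% at 0 h, and 9.80 to 18.4% at 72 h in 9311, against 31.1 to 38.6% at 0 h. No library of the 72 h groups overlapped the 0 h groups in either share. At 96 h the chloroplastic share stood at 35.3 to 40.3% in DC90 and 38.8 to 50.0% in 9311. Within the GRs the cytosolic form took 72.9 to 83.3% of the summed GR FPKM in DC90 at 72 h, against 56.9 to 65.0% at 0 h, and 76.7 to 89.4% in 9311 at 72 h, against 66.6 to 71.0% at 0 h. The summed GR level was 77.7 to 96.9 FPKM in DC90 at 72 h, against 37.0 to 41.2 FPKM at 0 h, and 77.1 to 152 FPKM in 9311 at 72 h, against 40.7 to 60.3 FPKM at 0 h. Between 72 h and 0 h the median of all loci moved by 0.16 in DC90 and by -0.13 in 9311 on the log2(FPKM + 1) scale. Shares and sums are given as a description, since they combine the values already tested by locus.

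**Figure D3:**
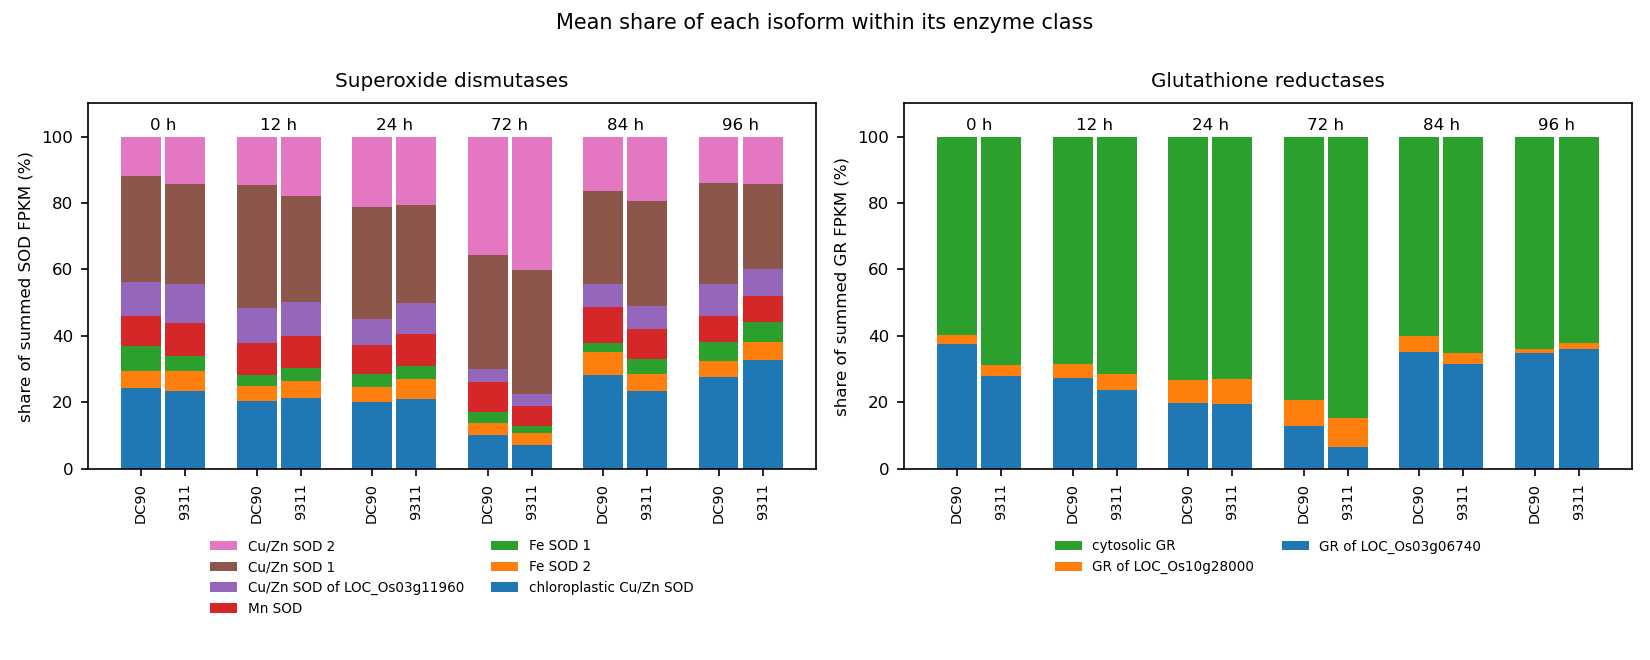
Mean share of each form in the summed FPKM of its enzyme class (%, stacked to 100, linear axis from 0) for the 7 SODs (left) and the 3 GRs (right) at each timepoint, with DC90 to the left of 9311. Cu/Zn SOD 2, at the top of the left panel, takes 35.7% in DC90 and 40.2% in 9311 at 72 h, and the cytosolic GR takes 79.4% and 84.6% in the right panel.

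Whether the wild rice locus went with a different SOD or GR response was asked by comparing DC90 with 9311 at each timepoint. None of the 60 comparisons (10 members at 6 timepoints) passed (edgeR's quasi-likelihood test), where 1.39% of all such comparisons over the 22961 loci did. The smallest adjusted p was 0.11, and 2 of the 60 had an unadjusted p under 0.05, both at 72 h. DESeq2 and limma also called 0, each with 2 at an unadjusted p under 0.05. The 95% interval of the log2 difference lay within 1 unit of 0 in 47 of the 60, with a median width of 1.11, so small differences could not be resolved with these replicates. In 8 of the 60 comparisons the replicate ranges of DC90 and 9311 did not overlap, where 19.7% of all comparisons did not. The interaction of genotype and time was called for 0 of 20 tests, over the chilling timepoints (0.27% of all loci) and over the recovery timepoints (0.148% of all loci), with 0 at an unadjusted p under 0.05 and a smallest adjusted p of 0.70. DESeq2 and limma called 0 interactions as well.

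The 2 smallest p-values at 72 h belonged to the cytosolic GR and to Cu/Zn SOD 2, both with lower means in DC90. The cytosolic GR had 115, 154 and 187 CPM in DC90 against 263, 135 and 353 CPM in 9311, which overlapped through replicate 2 of 9311, and the log2 difference was -0.72 (95% interval -1.28 to -0.17, adjusted p = 0.11). Cu/Zn SOD 2 had 155, 136 and 135 CPM in DC90 against 149, 197 and 206 CPM in 9311, with a log2 difference of -0.37 (95% interval -0.70 to -0.04, adjusted p = 0.18). Replicate 2 of 9311 at 72 h decided how many members passed at this timepoint. Without it, 2 of 10 passed and 18.3% of all loci did, against 0 of 10 and 5.21% of all loci with it. The cytosolic GR was then lower in DC90 (-1.02, SE 0.25, adjusted p = 0.0074) and the GR of LOC_Os03g06740 higher in DC90 (0.66, SE 0.23, adjusted p = 0.049, against 0.39 and an adjusted p of 0.34 with all libraries). Fe SOD 2 changed sign, to 0.45 (adjusted p = 0.11) without that library, against -0.17 (adjusted p = 0.76) with it. That replicate was also, among the 72 h libraries of 9311, the highest for the chloroplastic Cu/Zn SOD, Mn SOD, both Fe SODs and LOC_Os03g06740 and the lowest for Cu/Zn SOD 1, the cytosolic GR and LOC_Os10g28000.

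**Figure D4:**
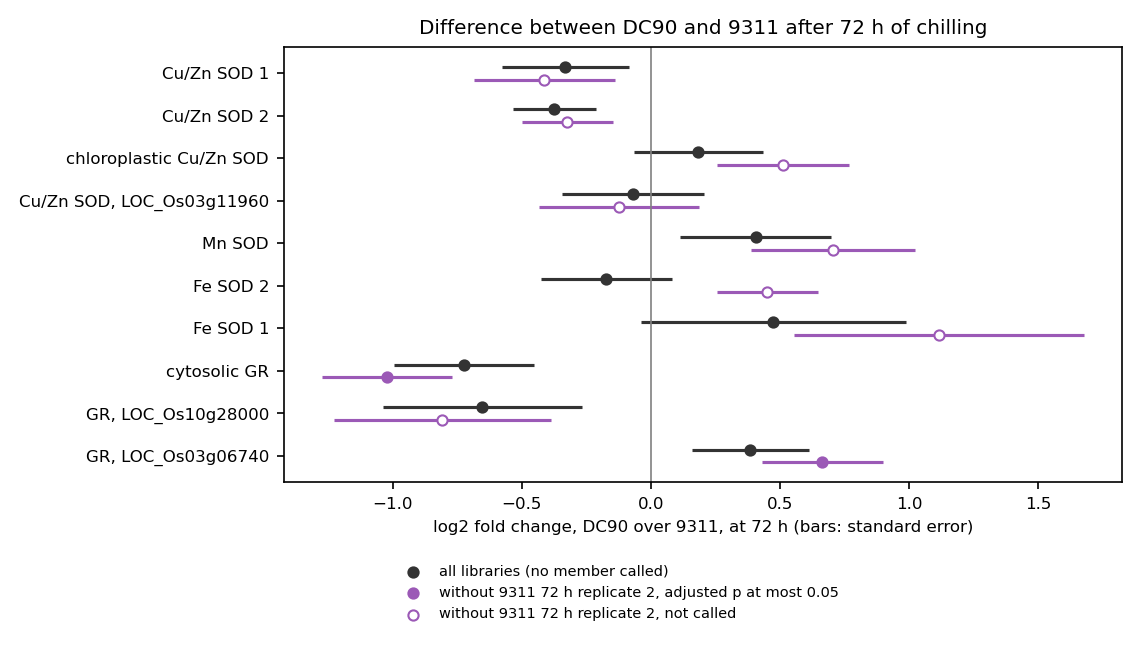
Log2 fold change of DC90 over 9311 at 72 h, with bars of 1 standard error, for each of the 10 loci with all libraries (dark) and without replicate 2 of 9311 at 72 h (purple, filled where the adjusted p was at most 0.05). The cytosolic GR lies at -0.72 with all libraries and at -1.02 without that replicate, and Fe SOD 2 at -0.17 and 0.45.

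Genes that feed or drain the same pathway were described from 33 loci in 7 lists, all of which were tested. At 72 h against 0 h, 17 of the 33 passed in DC90 (3 higher and 14 lower, 40.2% of all loci) and 19 in 9311 (3 higher and 16 lower, 48.8% of all loci), with median log2 fold changes of -0.45 in DC90 and -0.71 in 9311. Of all loci, 18.6% were higher and 21.6% lower in DC90, and 23.9% higher and 24.9% lower in 9311. The counts by list below stand beside these shares, and counts near them are not read as results about a list. Ascorbate peroxidases, which reduce hydrogen peroxide with ascorbate, passed as lower for 4 of 8 loci in DC90 and 5 of 8 in 9311, and dehydroascorbate reductases, which spend glutathione to regenerate ascorbate, for 2 of 2 in each genotype. Of the monodehydroascorbate reductases, which regenerate ascorbate from its radical, 1 of 5 passed as higher in each genotype, and 3 in DC90 and 2 in 9311 passed as lower. Of the glutathione synthesis loci, 1 of 5 was higher and 2 of 5 lower in each genotype, and 1 of 3 catalases was lower in each. Of the NADPH oxidases, which make superoxide at the plasma membrane, 1 of 9 passed as higher in each genotype, and 2 in DC90 and 4 in 9311 passed as lower. The copper chaperone that loads Cu/Zn SODs (LOC_Os04g48410) did not pass, at -0.33 in DC90 and -0.21 in 9311.

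The cytosolic monodehydroascorbate reductase MDAR4 (LOC_Os08g44340) had 396, 504 and 678 CPM in DC90 at 72 h, against 32.2, 34.1 and 29.5 CPM at 0 h, and 764, 358 and 923 CPM in 9311 at 72 h, against 31.6, 52.2 and 43.2 CPM at 0 h. Chilled and unchilled libraries were widely separated, with log2 fold changes of 4.04 (SE 0.88, adjusted p = 0.00065) in DC90 and 4.01 (SE 0.88, adjusted p = 0.00053) in 9311. The other list loci with the highest mean change were an NADPH oxidase (LOC_Os01g53294), at 1.70 in DC90 (adjusted p = 0.00053) and 1.30 in 9311 (adjusted p = 0.0041), and glutamate-cysteine ligase A (LOC_Os05g03820), which makes the dipeptide precursor of glutathione, at 0.60 (adjusted p = 0.0062) and 0.53 (adjusted p = 0.012). The 9311 value of glutamate-cysteine ligase A was 0.27 (adjusted p = 0.15) without replicate 2 at 72 h. The lowest were a glutathione synthetase (LOC_Os12g16200), at -3.01 in DC90 (adjusted p = 0.00071) and -1.75 in 9311 (adjusted p = 0.022), a catalase (LOC_Os03g03910), at -1.95 (adjusted p = 0.037) and -1.83 (adjusted p = 0.042), and the chloroplastic ascorbate peroxidase APX8 (LOC_Os02g34810), at -1.97 (adjusted p = 0.0070) and -1.79 (adjusted p = 0.010). The catalase call was lost in DC90 without replicate 1 or 3 at 0 h or replicate 1 or 2 at 72 h (adjusted p = 0.066, 0.077, 0.15 and 0.072), and in 9311 without any 1 of 5 libraries (adjusted p between 0.050 and 0.14). The 9311 call of the glutathione synthetase was lost without replicate 1 or 2 at 0 h or replicate 2 or 3 at 72 h (adjusted p between 0.053 and 0.061).

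**Figure D5:**
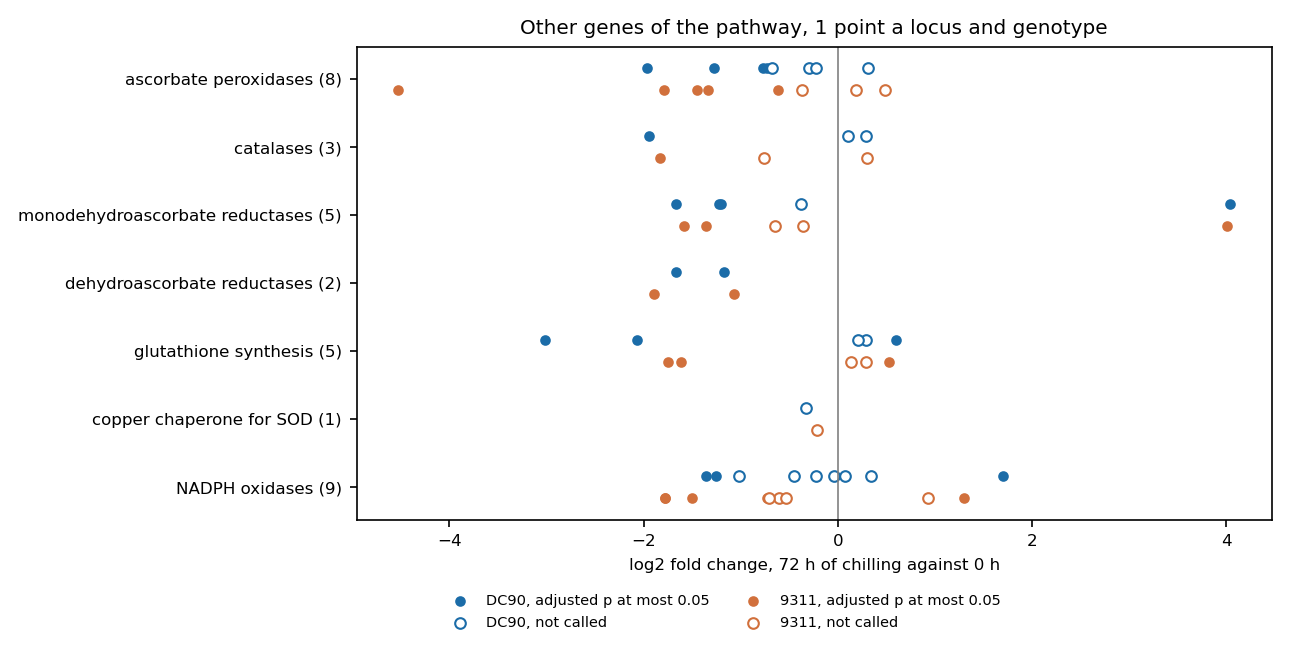
Log2 fold change at 72 h of chilling against 0 h of the 33 loci in 7 lists (number of loci in brackets), with 1 point a locus, DC90 in blue above 9311 in orange and filled points where the adjusted p was at most 0.05. MDAR4 stands alone at 4.04 (DC90) and 4.01 (9311). The leftmost 9311 point among the ascorbate peroxidases is LOC_Os12g07830, whose 9311 libraries at 72 h held 0, 4 and 0 counts, so that its position depends on the prior count of the fit.

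Over the 12 group means of log2(CPM + 1), the chloroplastic Cu/Zn SOD followed Fe SOD 2 (Pearson r = 0.947), LOC_Os03g11960 (r = 0.922) and Mn SOD (r = 0.908), and ran opposite to the cytosolic GR (r = -0.970) and LOC_Os10g28000 (r = -0.959). The cytosolic GR and LOC_Os10g28000 followed each other (r = 0.955), whereas the GR of LOC_Os03g06740 ran opposite to both (r = -0.861 with the cytosolic GR and -0.772 with LOC_Os10g28000). Cu/Zn SOD 1 and Cu/Zn SOD 2 had an r of 0.078. Outside the group, the locus with the pattern closest to the chloroplastic Cu/Zn SOD was LOC_Os07g34950, annotated as a thylakoid lumenal protein of the chloroplast (r = 0.988), and the closest to LOC_Os03g11960 was LOC_Os02g52940, a chloroplastic inorganic pyrophosphatase (r = 0.985). Cu/Zn SOD 2 was most like LOC_Os10g36030, a probable ascorbate-specific electron transporter of membranes (r = 0.964), and Cu/Zn SOD 1 was most like LOC_Os04g36859, a probable signal peptidase subunit (r = 0.950). Mn SOD was most like LOC_Os04g39670, annotated by similarity to POLYCHOME of Arabidopsis (r = 0.990), Fe SOD 2 was most like LOC_Os02g10490 (r = 0.982) and Fe SOD 1 was most like LOC_Os04g56370 (r = 0.988), which have no described function in the annotation. The cytosolic GR was most like LOC_Os05g38710, a phosphatidate phosphatase (r = 0.976), LOC_Os10g28000 was most like LOC_Os02g42210, a pentatricopeptide repeat protein (r = 0.984), and LOC_Os03g06740 was most like LOC_Os12g08220, a histone deacetylase (r = 0.962). These correlations describe 12 group means that share libraries, timepoints and the 0 h samples, and carry no test.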

How the data were processed

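RNA from 35 whole-plant samples was sequenced as paired-end Illumina libraries. The deposited table holds whole-number read counts per locus and FPKM (fragments scaled to transcript length and library size) per library, both computed by the authors. The study's methods name HISAT2 and the rice genome of the Rice Genome Annotation Project, whereas the submitters' processing notes list Bowtie 0.12.2 and the build mm 8, and which of these made the table was not settled. The use of strand and the treatment of reads shared by similar copies are not given in the sources used here, so closely related loci are uncertain to that extent. No column of values was left out (0 columns).

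Counts of the 57778 loci were filtered to those with a mean of at least 0.5 FPKM (22961 loci), scaled by TMM and fitted with edgeR 4.0.16 (R 4.3.3) as 12 groups of genotype and timepoint in 1 quasi-likelihood model, with Benjamini-Hochberg adjustment over all loci tested and a threshold of 0.05. Normalised CPM are counts scaled to TMM-adjusted library size. Log2 fold changes carry standard errors and 95% intervals from the same fit. The fit was also run on simulated counts with known changes in DC90 at 72 h. No simulated library stood apart from its group by design, so that run does not bear on calls that depend on 1 library. Libraries held 28004101 to 68927044 counts.

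The alternatives were DESeq2 size factors, DESeq2 1.42.0, limma 3.58.1 on log2(FPKM + 1) and log2(FPKM + 0.1), no filter, a minimum mean of 5 FPKM, a fit of only the groups compared, the replicate number as a block, the thresholds of the study (log2 fold change of at least 2 and adjusted p of at most 0.001) and leaving out each library in turn. Named loci were all 10 members, for each member the loci with the highest Pearson r over the 12 group means, and the 3 loci of the pathway lists with the highest and the 3 with the lowest mean change at 72 h among those called in both genotypes. The members and the lists were chosen with earlier results of these data known.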

Additional observations from a re-analysis of the deposited data

Results flagged for a closer look

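The ascorbate peroxidase of LOC_Os12g07830, one of the pathway loci, had a different course in DC90 and 9311 over the chilling timepoints (interaction of genotype and time, adjusted p = 0.003, edgeR's quasi-likelihood test). The interaction passed under 43 of 43 alternatives, with adjusted p between 1.1e-11 and 0.026. The 9311 libraries at 72 h held few or no counts of this locus, so the size of its fall there is uncertain. The genotypes also differed at 5 of 6 timepoints, among them 0 h, before any chilling. The locus lies next to a related copy, LOC_Os12g07820, and how reads shared by the copies were counted is not given in the sources used here.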

How the results depend on the processing

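Of 94 single results, 55 kept their direction and their side of the threshold under every alternative fit, and 3 changed sign, none of them called. These were Cu/Zn SOD 1 in 9311 at 72 h against 0 h (LOC_Os03g22810, -0.02; 0.032 with DESeq2 size factors, 0.032 with DESeq2, 0.005 with a minimum of 5 FPKM, 0.09 with only the groups compared and -0.068 to 0.062 with a library left out, the highest without replicate 2 of 9311 at 72 h), LOC_Os03g11960 in DC90 against 9311 at 72 h (-0.07; 0.10 with limma at either pseudocount and -0.172 to 0.039 with a library left out) and Fe SOD 2 in DC90 against 9311 at 72 h (LOC_Os06g05110, -0.17; 0.076 and 0.088 with limma, and -0.441 to 0.45 with a library left out, the highest without replicate 2 of 9311 at 72 h). The cause was not tested.

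For counts of members called, the study's thresholds gave, in DC90, 3 of the 14 in chilling, 0 of 2 in recovery, 3 of 9 at 96 h against 72 h and 0 of 3 at 12 h against 84 h, and in 9311, 3 of 12, 0 of 1, 3 of 9 and 0 of 1. At these thresholds the share of all loci is given for 72 h against 0 h only (7.73% in DC90 and 11.5% in 9311). The other counts are therefore not read as results about the members. With limma on FPKM at either pseudocount the counts were 5 in DC90 recovery, 5 in DC90 at 12 h against 84 h and 4 in 9311 at 12 h against 84 h. With log2(FPKM + 1), 6812 of 22961 loci passed in DC90 at 84 h and 1603 at 96 h. At 12 h against 84 h, 11850 loci passed in DC90 and 9827 in 9311. On that scale the median of all loci moved by -0.466 to 0.368 over the comparisons (log2(FPKM + 1)), against -0.095 to 0.036 with TMM. Without a filter the count of members was 1 in DC90 recovery (of 42267 loci, 2304 passed at 84 h and 1180 at 96 h). It was 0 in 9311 recovery (1662 and 464 loci) and 0 in 9311 at 12 h against 84 h (7349 loci). With only the groups compared, the counts were 0 in each of these. Of 22961 loci, that fit called 1680 at 84 h and 725 at 96 h in DC90, and 3038 and 720 in 9311. It called 2044 in 9311 at 12 h against 84 h. With a minimum of 5 FPKM the count of members was 2 in 9311 at 12 h against 84 h (5717 of 14335 loci). Leaving out 1 library gave 8 to 16 in DC90 chilling (8 without replicate 1 at 0 h), 1 to 4 in DC90 recovery (4 without replicate 1 at 0 h, 1 without replicate 2 at 0 h or replicate 1 at 96 h), 7 to 9 in DC90 at 96 h against 72 h and 1 to 3 in DC90 at 12 h against 84 h (1 without replicate 3 at 84 h). In 9311 it gave 10 to 13 in chilling, 0 to 1 in recovery, 8 to 9 at 96 h against 72 h and 0 to 4 at 12 h against 84 h (4 without replicate 2 at 12 h, 0 without replicate 3 at 84 h), and between DC90 and 9311 it gave 0 to 2 (2 without replicate 2 of 9311 at 72 h) and for a difference in response 0. Apart from the DC90 against 9311 comparison at 72 h, the shares of all loci in these fits are not given here.

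Whether replicate numbers pair the libraries was not tested, and the main fit treats the libraries as unpaired. Deviations from the group means correlated by -0.29 to 0.55 and above 0.1 in 18 of 46 pairs, and 16 of 35 libraries correlated best with their own number. In the DC90 against 9311 comparison at 12 h, every pair was above 0.1, and 0 members passed with the block. With the replicate number as a block, 4 single results lost their call, among them LOC_Os06g02500 in DC90 at 12 h (-1.34, adjusted p = 0.067) and LOC_Os03g06740 in DC90 at 72 h (-0.56, adjusted p = 0.059), and the count in DC90 at 12 h was 0, against 1 without the block. Counts summed over the chilling or the recovery timepoints moved by less than 1.5 times. With 3 libraries a group, log2 differences between DC90 and 9311 of less than about the median interval width of 1.11 were often not resolved.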

Other observations

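No SOD or GR passed between the genotypes in 60 comparisons, where 1.39% of all such comparisons did. In the pathway lists, 3 loci passed at several timepoints, and these were picked after their values were seen. The share of all loci that passed at as many timepoints is not given here, so these loci are not set against the SODs and GRs. LOC_Os12g07830, an ascorbate peroxidase, had 14.7 to 33.9 CPM over the DC90 libraries and at most 14.0 CPM over the 9311 libraries, and the genotypes differed at 5 of 6 timepoints and not at 12 h (adjusted p = 0.23), where replicate 2 of 9311 held the highest 9311 value. The 9311 libraries at 72 h held 0, 4 and 0 counts of it. LOC_Os12g16200, a glutathione synthetase, was lower in DC90 than in 9311 at 12, 24 and 72 h, with log2 fold changes of -4.16, -4.55 and -2.50. The 72 h call was lost in 7 of 42 alternatives (adjusted p up to 0.14), 5 of them without a single library: any of the 3 DC90 libraries or replicate 1 or 3 of 9311. LOC_Os12g35610, an NADPH oxidase, was higher in DC90 at 12, 24, 72 and 96 h, with log2 fold changes of 2.50, 2.73, 2.10 and 2.94. Its 12 h call was lost without replicate 1 of DC90 or replicate 1 or 3 of 9311 (adjusted p between 0.061 and 0.11), and its 72 h call without replicate 3 of 9311 (adjusted p = 0.091). All 3 carry identifiers of chromosome 12, and whether they lie within the wild rice segment of DC90 was not tested.

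The monodehydroascorbate reductase MDAR4 (LOC_Os08g44340) was at 0 counts in replicate 2 of DC90 at 96 h, against 941 and 856 counts in replicates 1 and 3 of that group, a library singled out after its value was seen.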
